A study of Mus musculus with 4 samples.

Results

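The interactions described here form triangles: sets of 3 bins of 10 kb in which every pair was listed as interacting and each bin held the end of some coding gene. A bin counted as a gene end when it overlapped the 2.5 kb before or after the first or last base of an autosomal protein-coding gene. The bins, called corners, had to lie at least 50 kb apart. Of the 32192 triangles that any listed bins formed at this separation, 2489 had a gene end at all 3 corners (7.73%). They occupied 3028 bins and touched 3349 coding genes. The triangles were chosen by the presence of all 3 pairs in the list, so their number, distances and genes are given as a description without a test.

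The study used H3K27ac HiChIP on 2 libraries of wild-type mouse neural stem cells, grown with EGF, basic FGF and heparin, and 2 libraries of tumor cells taken from YAP-M tumors of the brain. The labels repeat that growth protocol for the tumor libraries. YAP-M is the fusion of YAP1 with MAMLD1. The sample titles read ChIP-seq, while the extract protocol and the design text name HiChIP. The labels give no age, strain or promoter for the fusion, and do not say whether the libraries came from separate animals or cultures. The deposited interactions were a single list of 99041 bin pairs, 20 to 1000 kb apart, on the 19 autosomes. Its name reads YM, taken here as YAP-M; no column ties it to a library, and a neural stem cell list was not used here. The list holds no counts, so depth is unknown, no value has a replicate error, and tumor and neural stem cells were not compared. Exact (Clopper-Pearson) 95% intervals are printed after shares. They express counting error only, since bins next to each other are not independent.

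Acetylation of histone H3 at lysine 27 marks active promoters and enhancers. HiChIP ligates DNA ends that sit side by side in the nucleus and enriches the fragments that carry the mark, so a listed pair joins regions that were near each other more often than a caller's background allowed. Active promoters can lie near each other in this way, and sets of promoters that are mutually close have been called hubs. YAP1 is the co-activator at the end of the Hippo pathway, which restrains growth; it works at enhancers and promoters through TEAD factors, and its fusion to MAMLD1 is found in childhood ependymoma. A triangle in a list made from many cells does not show that its 3 ends met in the same cell.

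The promoters of 11 genes show what the corners look like in sequence. Each runs from 250 bases before to 50 bases after a RefSeq transcription start on GRCm38.p6, the assembly also called mm10, and is written 5′ to 3′ on the strand of the gene. The first trio had the most alike promoters at 3 corners of a triangle. It joined Gm51425 (chr17:17004866-17005165, plus strand), Gm5165 (chr17:17234653-17234952, plus strand) and Gm6712 (chr17:17294193-17294492, plus strand), all predicted genes. Capitals mark bases covered by stretches of 8 bases that each occur in all 3 promoters. Stretches that overlap or touch are printed as 1 run, so a longer run need not occur whole in the other promoters. The letters GGAATG, in capitals in Gm6712, are such a case and occur in that promoter only.
Gm51425: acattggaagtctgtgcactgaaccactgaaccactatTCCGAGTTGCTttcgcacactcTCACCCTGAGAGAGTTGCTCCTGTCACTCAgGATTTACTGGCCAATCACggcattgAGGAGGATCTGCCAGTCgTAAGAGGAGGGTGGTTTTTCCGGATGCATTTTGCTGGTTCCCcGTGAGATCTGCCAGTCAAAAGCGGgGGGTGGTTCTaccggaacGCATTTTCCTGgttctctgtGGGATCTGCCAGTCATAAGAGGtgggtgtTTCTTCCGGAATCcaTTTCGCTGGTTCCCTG
Gm5165: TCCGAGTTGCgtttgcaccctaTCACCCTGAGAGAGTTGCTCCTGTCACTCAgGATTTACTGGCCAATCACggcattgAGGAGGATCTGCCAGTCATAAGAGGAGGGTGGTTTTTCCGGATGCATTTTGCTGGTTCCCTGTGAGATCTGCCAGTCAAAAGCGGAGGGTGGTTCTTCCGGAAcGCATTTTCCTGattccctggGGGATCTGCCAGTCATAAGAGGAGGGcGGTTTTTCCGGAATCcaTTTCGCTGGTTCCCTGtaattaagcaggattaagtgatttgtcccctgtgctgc
Gm6712: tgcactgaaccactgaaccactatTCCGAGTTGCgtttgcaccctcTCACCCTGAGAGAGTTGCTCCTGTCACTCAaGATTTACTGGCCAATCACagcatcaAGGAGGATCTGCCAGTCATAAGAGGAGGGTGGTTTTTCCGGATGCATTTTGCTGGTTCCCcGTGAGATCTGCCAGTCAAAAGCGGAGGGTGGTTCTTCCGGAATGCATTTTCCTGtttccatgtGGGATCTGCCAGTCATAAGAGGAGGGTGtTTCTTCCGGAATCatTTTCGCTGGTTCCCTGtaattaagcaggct

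The second trio came from the zinc finger gene cluster of chromosome 13 and was the most alike trio with official gene symbols of the Zfp kind. It held Zfp759 (chr13:67127978-67128277, plus strand), Zfp729a (chr13:67637732-67638031, minus strand) and Zfp738 (chr13:67683463-67683762, minus strand). Capitals have the same meaning as above.
Zfp759: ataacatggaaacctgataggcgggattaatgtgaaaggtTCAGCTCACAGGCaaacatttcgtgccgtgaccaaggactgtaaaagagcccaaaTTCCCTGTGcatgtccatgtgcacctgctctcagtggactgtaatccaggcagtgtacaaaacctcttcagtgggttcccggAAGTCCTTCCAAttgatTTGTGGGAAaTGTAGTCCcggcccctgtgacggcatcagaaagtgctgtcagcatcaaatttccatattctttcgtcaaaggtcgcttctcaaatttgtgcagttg
Zfp729a: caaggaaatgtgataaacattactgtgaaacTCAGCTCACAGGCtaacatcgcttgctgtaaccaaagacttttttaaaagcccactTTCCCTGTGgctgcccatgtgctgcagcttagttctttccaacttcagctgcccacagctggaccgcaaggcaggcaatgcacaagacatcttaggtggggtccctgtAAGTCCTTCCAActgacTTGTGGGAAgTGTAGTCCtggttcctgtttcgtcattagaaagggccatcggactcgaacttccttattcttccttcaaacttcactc
Zfp738: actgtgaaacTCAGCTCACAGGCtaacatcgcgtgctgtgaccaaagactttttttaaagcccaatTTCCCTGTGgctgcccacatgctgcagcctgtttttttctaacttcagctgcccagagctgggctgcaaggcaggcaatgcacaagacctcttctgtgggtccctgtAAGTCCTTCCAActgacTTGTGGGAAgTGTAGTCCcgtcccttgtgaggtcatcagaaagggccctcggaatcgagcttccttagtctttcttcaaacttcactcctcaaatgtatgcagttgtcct

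The triangles of the YAP target Ccn1 (promoter chr3:145649936-145650235, minus strand) had 2 corners at its neighbour Ddah1 (chr3:145758442-145758741, plus strand), the last of them at the far end of that gene, where no promoter of the table lies. Capitals mark the 6 letters of a TEAD match, read on the opposite strand as GGAATG.
Ccn1: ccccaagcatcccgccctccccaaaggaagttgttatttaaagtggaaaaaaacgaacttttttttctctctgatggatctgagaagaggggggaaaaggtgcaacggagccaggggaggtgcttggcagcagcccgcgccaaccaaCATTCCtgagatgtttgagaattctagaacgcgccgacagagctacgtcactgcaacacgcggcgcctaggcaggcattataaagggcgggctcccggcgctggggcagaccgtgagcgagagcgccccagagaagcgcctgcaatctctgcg
Ddah1: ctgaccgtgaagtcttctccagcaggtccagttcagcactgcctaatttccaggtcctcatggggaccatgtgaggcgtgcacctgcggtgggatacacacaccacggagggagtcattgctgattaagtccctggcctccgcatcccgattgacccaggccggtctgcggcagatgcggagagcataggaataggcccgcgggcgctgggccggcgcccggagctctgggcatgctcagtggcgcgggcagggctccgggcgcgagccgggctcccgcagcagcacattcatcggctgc

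The widest triangle whose bins each held an end of exactly 1 gene joined Vdac1 (chr11:52360601-52360900, plus strand), Hspa4 (chr11:53300430-53300729, minus strand) and Aff4 (chr11:53350517-53350816, plus strand). Capitals mark CpG dinucleotides, of which the promoters held 24, 25 and 44.
Vdac1: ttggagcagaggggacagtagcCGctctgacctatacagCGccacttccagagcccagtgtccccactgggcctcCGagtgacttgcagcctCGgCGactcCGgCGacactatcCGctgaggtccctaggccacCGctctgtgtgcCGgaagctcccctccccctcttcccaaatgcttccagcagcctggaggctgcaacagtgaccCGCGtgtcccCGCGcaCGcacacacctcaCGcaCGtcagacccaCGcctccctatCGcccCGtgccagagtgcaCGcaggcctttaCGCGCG
Hspa4: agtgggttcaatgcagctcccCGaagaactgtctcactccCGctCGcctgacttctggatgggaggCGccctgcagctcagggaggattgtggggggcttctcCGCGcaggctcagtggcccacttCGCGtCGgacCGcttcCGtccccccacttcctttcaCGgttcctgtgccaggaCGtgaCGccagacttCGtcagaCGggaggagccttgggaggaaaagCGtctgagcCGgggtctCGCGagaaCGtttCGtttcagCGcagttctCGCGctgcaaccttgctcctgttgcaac
Aff4: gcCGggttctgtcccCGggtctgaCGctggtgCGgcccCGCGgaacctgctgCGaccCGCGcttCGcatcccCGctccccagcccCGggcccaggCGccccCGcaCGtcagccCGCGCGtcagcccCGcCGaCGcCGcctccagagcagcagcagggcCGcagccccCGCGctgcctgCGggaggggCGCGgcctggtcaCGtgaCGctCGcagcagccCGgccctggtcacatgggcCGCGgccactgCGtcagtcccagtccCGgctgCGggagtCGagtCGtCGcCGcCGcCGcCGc

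The span of a triangle, from its lowest to its highest bin, had a median of 310 kb and ran from 100 to 1000 kb, with quartiles at 220 and 480 kb. Spans over 500 kb made up 22.9% of the triangles (569), and 56 spanned 900 kb or more. The shorter distance between neighbouring corners had a median of 100 kb, the longer one a median of 200 kb. The shorter distance took a median 34.8% of the span, where 50% is the most it can take by definition. At the separation limit itself, 311 triangles had a closest pair 50 kb apart; the rule left out 290 whose closest pair was 40 kb apart, 220 at 30 kb and 175 at 20 kb.

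**Figure D1:**
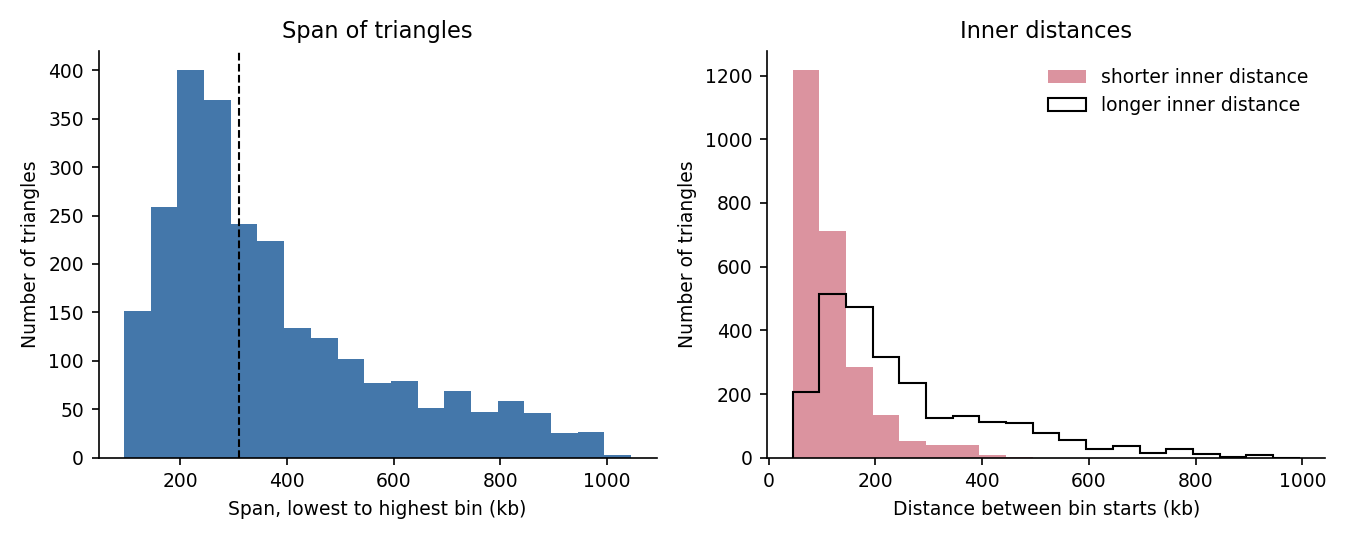
Left, number of triangles by span (kb) in steps of 50 kb, with the median of 310 kb dashed. Right, the shorter (filled) and longer (outline) distance between neighbouring corners (kb), with medians of 100 and 200 kb; most triangles are short and a tail reaches 1000 kb.

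Gene ends did not make up most corners in the list, nor most of its bins. Of all 56427 bins with a listed interaction, 18617 were at coding-gene ends, so triangles with few gene-end corners do not by themselves show that gene ends were scarce in them. Among all 32192 triangles, 33.8% had no corner at a coding-gene end, 40.8% had 1, 17.6% had 2 and 7.73% had 3. The median span fell with the number of gene-end corners: it was 400 kb with none, 340 kb with 1, 330 kb with 2 and 310 kb with 3. Neighbouring bins often repeated a triangle. Merging triangles whose corners lay in adjacent bins left 1470 of the 2489, or 1.69 triangles per merged one, against 2.53 for triangles without a gene end (10894, merged to 4314).

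Many bins held ends of several genes, and this set how many genes a triangle named. Of the 3028 corner bins, 63.0% held an end of a single gene, against 70.7% of all 18617 gene-end bins in the list, and the fullest held ends of 5. In 603 triangles (24.2%) each bin held an end of exactly 1 gene and the 3 genes differed; these used 800 genes. Another 105 triangles could not be assigned 3 different genes, because both ends of a long gene took 2 corners, as at Ddah1. The gene table has no strand, so an end can be the promoter or the opposite end. With the RefSeq promoter table, which held 2696 of the 3349 genes (80.5%), a start lay in or near 79.6% of the corner bins whose genes all had an entry (95% interval 77.9 to 81.3%, 1816 of 2281 bins). In gene-end bins outside triangles the share was 68.7% (67.8 to 69.5%, 8051 of 11727). Of the 1273 triangles with complete entries, 724 (56.9%) had a start at all 3 corners, 413 at 2, 121 at 1 and 15 at none. A pair of bins joined start to start in 66.1% of pairs in triangles and 56.3% of other gene-end pairs at least 50 kb apart. Corner bins held ends of several genes more often, as given above. They also had a median of 6 interactions, against 2 for gene-end bins outside triangles. A corner has at least 2 by definition. The part of either difference in the shares with a start was not tested.

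A pair of listed interactions that share a bin forms a wedge, and the wedge closes into a triangle when its outer bins are also listed as a pair. Of 31890 wedges among gene ends, 23.4% were closed (95% interval 23.0 to 23.9%), against 21.6% (21.4 to 21.8%) of 151562 wedges among bins away from coding-gene ends. The order of these classes depended on distance. Where the outer bins lay 50 to 90 kb apart, 16.9% of gene-end wedges were closed and 10.9% of the others. At 100 to 190 kb the shares were 28.9% and 20.9%, and at 200 to 290 kb they were 29.6% and 27.3%. From 300 to 490 kb the order turned, with 22.9% against 28.9%, and from 500 to 1000 kb it was 19.1% against 26.4%. Wedges share bins, and each triangle is counted once from every corner. The 95% intervals are therefore too narrow to compare the classes, and the shares are a description.

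**Figure D2:**
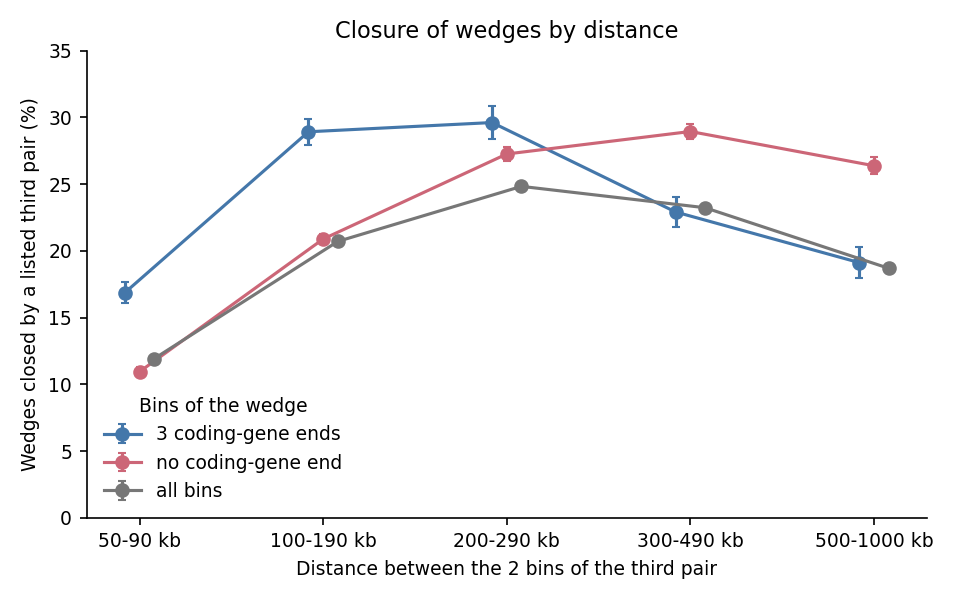
Share of wedges closed by a listed closing pair (%), by the distance between the outer bins (kb), for wedges with 3 coding-gene ends, with none, and for all bins; bars are exact 95% intervals. Gene-end wedges closed more often below 300 kb, 28.9% against 20.9% at 100 to 190 kb, and less often above it.

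The position of the shared bin also mattered. When it lay between the others, 24.8% of gene-end wedges were closed, against 37.6% of wedges away from gene ends. When it lay to one side, the shares were 22.8% and 17.8%. The median distance between the outer bins was 385 kb in gene-end wedges with the shared bin between and 120 kb with it outside, and distance was not held fixed in this split.

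Triangles that shared a bin were joined into 539 networks. The median network had 2 triangles, 5 bins and 5 genes; 158 were a single triangle, 67 had at least 10 triangles, and the 50 with the most triangles held 39.2% of them. Fully connected sets were small. Of the largest sets that could not be extended, 2043 had 3 bins, 129 had 4 and only 2 had 5. The first set of 5 spanned 910 kb of chromosome 1 and linked Dcaf6 and Mpc2, Rcsd1, Creg1, Pou2f1 and Tada1. Mpc2 is a subunit of the mitochondrial pyruvate carrier, Creg1 a secreted glycoprotein, Pou2f1 the octamer-binding transcription factor Oct-1 and Tada1 a subunit of the SAGA co-activator. The second spanned 670 kb of chromosome 3 and linked Gm9733, Sirpb1a, Sirpb1b, Sirpb1c and Gm5150, which include receptors of the signal regulatory protein family of myeloid cells. Among the sets of 4, the widest (1000 kb, chromosome 7) linked bins of Epp13 and Zfp667, of Zfp78, of Zfp773 and Zfp954, and of Clcn4 and Vmn2r29. Sets of 4 on chromosome 6, up to 990 kb wide, linked Avl9, Kbtbd2, Nt5c3 and Lancl2.

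**Figure D3:**
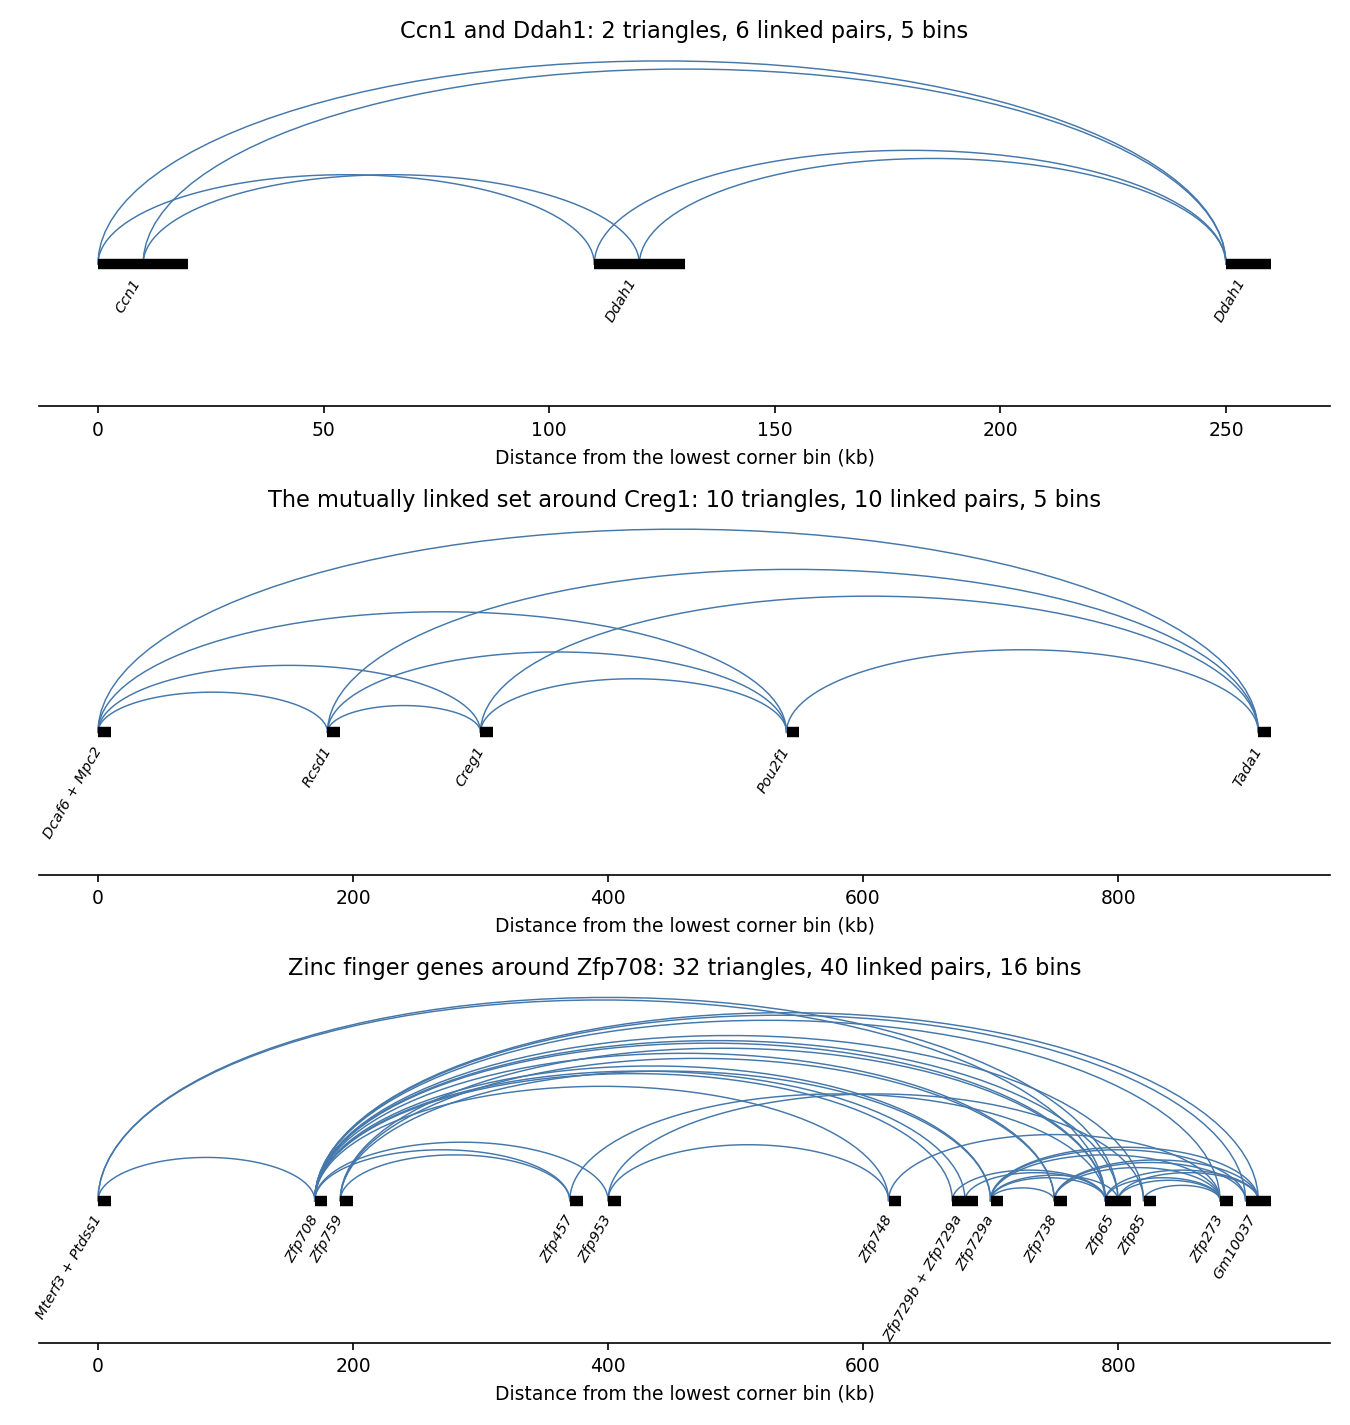
Arcs are listed pairs and black blocks are corner bins of 10 kb, along the distance from the lowest corner bin (kb). Top, the 2 triangles of Ccn1 and Ddah1; middle, the 5 mutually linked bins around Creg1 (10 pairs, 10 triangles); bottom, the Zfp708 network (16 bins, 40 pairs, 32 triangles), whose arcs converge on Zfp708.

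The network with the most genes lay on chromosome 5 (chr5:136980001-138760000) and joined 31 genes through 60 triangles among 25 bins. Its centre was Gigyf1, a partner of the translational repressor 4EHP, which stood at a corner of 51 triangles, more than any other gene, although these merged to 13. Its ends had 39 interactions, of which 37 went to other gene ends at least 50 kb away, and its triangles reached 21 other genes. Tsc22d4, a leucine zipper protein, had 32 triangles, and Agfg2, an Arf GTPase-activating protein, had 27. Mepce, which caps the non-coding RNA 7SK, and the centriole protein gene Ppp1r35 shared their bin and had 29 each. Pop7, Gnb2, Mospd3, Lrch4 and Sap25 were further members. Here a few bins held ends of several genes, so a gene's count cannot be separated from that of its neighbours.

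The next 2 networks were on chromosome 7. One (chr7:3610001-5070000) joined 29 genes through 38 triangles around Leng8, which had 28 triangles and 52 interactions. It ranged over the splicing factor gene Prpf31, the tRNA splicing endonuclease subunit Tsen34, the phosphatase regulator Ppp1r12c, and the troponin genes Tnnt1 and Tnni3 of muscle. The other (chr7:126700001-127210000) joined 28 genes through 40 triangles within 500 kb. Its leading genes were Qprt, an enzyme of NAD synthesis, with 28 triangles and 24 partner genes, the zinc finger factor gene Maz and the synaptic protein gene Prrt2, with 25 each, then Kif22, a kinesin of the spindle, and Aldoa, a glycolytic aldolase. Rnh1, the ribonuclease inhibitor, led a further network of chromosome 7 (18 genes, 31 triangles) that held 5 Ifitm genes, and had 26 triangles itself.

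On chromosome 11, a network of 27 genes with only 13 triangles surrounded Polr2a, which encodes the catalytic subunit of RNA polymerase II, with Senp3, a SUMO protease, and Eif4a1, a helicase of translation initiation. A second network there (chr11:50930001-53360000) was the widest of the 8 with the most genes, at 2420 kb, and joined 21 genes through 32 triangles. Its leaders were the kinase gene Cdkl3 (23 triangles), the ubiquitin-conjugating enzyme gene Ube2b (19) and Vdac1 (15), the channel of the outer mitochondrial membrane, with Skp1, a subunit of SCF ubiquitin ligases, and Sec24a, of the COPII coat. All 22 interactions of Vdac1 went to other gene ends at least 50 kb away. It also formed the widest clean triangle, 990 kb, with Hspa4, a chaperone of the Hsp110 family, 930 kb away, and Aff4, the scaffold of the super elongation complex, 60 kb beyond. The remaining networks of the 8 were smaller. Zfp119b on chromosome 17 led 20 genes, among them Safb2 and the chromatin assembly subunit Chaf1a. The replication-dependent histone cluster of chromosome 13, led by H2ac11, had 19 genes in 12 bins, 14 triangles and sets of 4 mutually linked bins that also held Trim27. Sac3d1 on chromosome 19 led 19 genes, among them Snx15, the kinase gene Map4k2 and Men1, the gene of the tumor suppressor menin.

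Among triangles with 3 single-gene bins, another wide one joined Ergic2, Etfbkmt and Amn1 over 980 kb of chromosome 6. Its corners were 920 and 60 kb apart. The narrowest spanned 110 kb. They joined Srp14, Bmf and Bub1b on chromosome 2, Klf16, Csnk1g2 and Mob3a on chromosome 10, and Pgf, Eif2b2 and Acyp1 on chromosome 12. The genes of the chromosome 2 triple have different textbook roles: Srp14 belongs to the signal recognition particle, Bmf is a pro-apoptotic BH3 protein and Bub1b a kinase of the spindle checkpoint.

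Some triangles joined members of a gene family. In 80 triangles (3.21%), the 3 corners could be given different genes of a single symbol stem, over 9 stems. Stems under 3 characters, such as the H left for H2ac and H2bc histone genes, and general ones such as Gm were not counted. Other histone symbols, such as those of H3c and H4c genes, kept a stem of 3 characters and could count. Zfp genes accounted for 35 and Ms4a genes for 28; Trim had 7, Ifi 3, Cyp4f and Gbp 2 each, and Gimap, Krt and Sirpb 1 each. Pairs of bins in triangles had genes of a common stem in 4.95% of cases (95% interval 4.35 to 5.60%, 239 of 4830), other linked gene-end pairs in 3.40% (3.08 to 3.75%) and unlinked gene-end bins 50 kb to 1 Mb apart in 1.41% (1.36 to 1.46%). These pairs were not matched for distance.

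The Zfp708 network on chromosome 13 (chr13:66930001-67850000) held 14 genes, 11 of them Zfp genes, in 16 bins with 32 triangles. Zfp genes of this kind encode proteins with arrays of C2H2 zinc fingers, many of them with a KRAB domain that represses transcription, and they lie in clusters that arose by duplication. Zfp708 had 22 triangles that merged to 15, the most merged triangles of any gene, and all of its 16 interactions went to other gene ends at least 50 kb away. Zfp729a had 16 triangles, which merged to 11. Zfp759, Zfp729a and Zfp738, printed above, had promoter identities of 71.3% for Zfp759 with Zfp729a, 83.0% for Zfp729a with Zfp738 and 73.7% for Zfp759 with Zfp738.

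The Ms4a6d network on chromosome 19 (chr19:11060001-11770000) held 17 genes, 14 of them of the Ms4a family of tetraspanning membrane proteins, which many immune cells express. Ms4a6d had 22 triangles, merged to 14, and 34 interactions; Ms4a6b had 17 triangles. A separate network of 36 triangles on the same chromosome was led by Ms4a10, which stood at a corner of all 36, but it merged to 7 and its other leading genes were mostly of other families, such as Pga5, Vps37c and Ccdc86. The Trim30a network on chromosome 7 held 7 Trim genes, whose proteins include antiviral E3 ubiquitin ligases. Triangles of interferon-induced Ifi genes (Ifi202b to Ifi211) lay on chromosome 1, and of Gbp genes, the interferon-induced GTPases, on chromosome 3.

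Sequence likeness was measured between promoters at different corners, by a global alignment of the 300 bases. Over 3750 pairs of corner genes the median identity was 58.3%, and 30 pairs reached 70%, with a highest value of 97.3%. In 4 of the 968 triangles with a promoter for 3 genes, every pair reached 70%. The trio Gm51425, Gm5165 and Gm6712 had a smallest pairwise identity of 82.3%, and the trio Gm38525, Trim30a and Trim30d one of 82.0%. The third trio was Zfp759, Zfp729a and Zfp738. Gm5165 and Gm6712, each with 10 triangles, belonged to a network of 6 genes on chromosome 17 with Riok2, Has1 and Lnpep, in which Riok2, an atypical kinase of ribosome assembly, had 12 triangles. Reads from near-identical copies can be placed at the wrong copy, and the authors' handling of such reads is not given in the sources used here. For the family triangles, the part of likeness between gene copies was not tested.

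The lists of genes described next were chosen with earlier results of these data known. Over all 20665 autosomal coding genes, 16.2% had an end at a triangle corner, and 24.7% of the 13580 coding genes with at least 1 interaction did. Against this, 53 of 370 list genes had an end at a corner. Of the 21 lists, 19 had a 95% interval that held 16.2%, so most of the lists could not be told from all coding genes. The median number of triangles per gene was 0 over all coding genes and in 20 lists, and 0.5 among the co-activators.

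**Figure D4:**
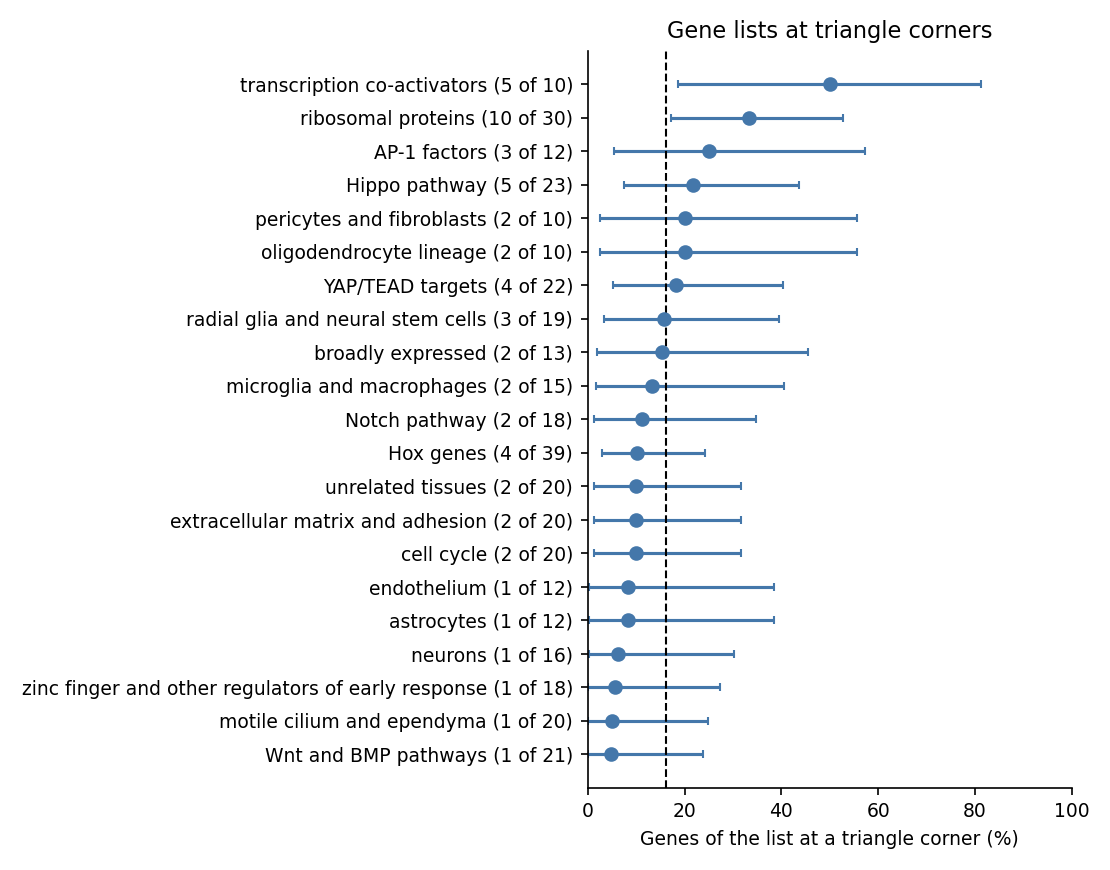
Share of the genes of each list with an end at a triangle corner (%), with exact 95% intervals; the numbers of genes are in brackets and the dashed line is the 16.2% of all coding genes. The intervals of the transcription co-activators (5 of 10) and ribosomal proteins (10 of 30) lie above the line, and the other 19 hold it. Without Polr2a the co-activator interval (13.7 to 78.8%) holds it too. When only bins with an end of a single gene were used, the ribosomal protein share was no longer above that of all coding genes.

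Among YAP/TEAD targets, 4 of 22 had an end at a corner (18.2%, 95% interval 5.19 to 40.3%). Fjx1, a secreted regulator of planar polarity, had 6 triangles over at most 760 kb with Traf6, an adaptor of innate immune signalling, and the bins of Commd9 and Prr5l; they merged to 1. Lats2, a kinase that inhibits YAP1, had 3 triangles with Sap18, Mrpl57, Ska3 and Micu2. Ccn1, a matricellular protein, had 2 triangles, both with Ddah1, an enzyme that breaks down methylated arginines. Their corners lay at chr3:145640001-145650000 or the next bin, at 145750001-145760000 or the next bin, and at 145890001-145900000, so the widest spanned 250 kb. Ajuba, a LIM protein that binds LATS kinases, had 1 with Dad1 and the bin of Acin1 and Cdh24.

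In the Hippo pathway 5 of 23 genes had an end at a corner (21.7%, 7.46 to 43.7%). Besides Lats2, they were Mob1a, the co-factor of LATS kinases, with 2 triangles, Nf2, the upstream scaffold merlin, with 2, and the kinases Stk3 (MST2) and Map4k4 with 1 each. Nf2 was joined to Hormad2 and Osm, and Map4k4 to the interleukin receptor genes Il1r2 and Il1rl2. Of the Notch genes 2 of 18 had an end there (11.1%, 1.38 to 34.7%). Hes5, a repressor that Notch induces in neural progenitors, had 4 triangles, from its shared bin with Pank4 to the bins of Mmel1, Prxl2b, Pex10 and Plch2, and Morn1 and Rer1. Adam10, the protease that cuts Notch receptors, had 3, with 2 corners at its own ends. In the Wnt and BMP list only Ctnnb1, the gene of beta-catenin, had an end at a corner, in 1 triangle (1 of 21). The intervals of all 4 of these lists held the 16.2% of all coding genes.

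AP-1 factors, the early-response dimers that often share enhancers with TEAD, had 3 of 12 genes at corners (25%, 5.49 to 57.2%). Fosl2 had 5 triangles over up to 590 kb, from its ends to Slc4a1ap and to the bins of Mrpl33, Rbks and Babam2. Mafk had 2 and Fosb 1. Among the 18 zinc finger and other early-response regulators, only Klf13 was at a corner, with 4 triangles (5.56%, 0.141 to 27.3%). Of the list of transcription co-activators, which also holds the polymerase gene Polr2a, 5 of 10 stood at a corner (50%, 18.7 to 81.3%). Without Polr2a, left out after the data were seen, it was 4 of 9 (44.4%, 13.7 to 78.8%), an interval that holds 16.2%. The 5 were Polr2a with 11 triangles, the histone acetyltransferase gene Kat2a with 8, the acetyl-lysine reader gene Brd2 with 2, and Crebbp, which encodes the acetyltransferase CBP, and Ncoa3 with 1 each. Ribosomal protein genes stood at 10 of 30 (33.3%, 17.3 to 52.8%), led by Rpl3 with 9 triangles, then Rpl7, Rpl13 and Rps14 with 3 each. Both shares fell when only bins with an end of a single gene were used, to 10% of co-activators and 3.33% of ribosomal protein genes, against 4.11% of all coding genes. Both main intervals also held the 24.7% of genes with an interaction, but they are over all genes of a list. Of the list genes with an interaction, 5 of 8 co-activators (62.5%) and 10 of 28 ribosomal protein genes (35.7%) stood at a corner. No interval was computed for these shares. The genes of both lists had more neighbours than most: a median of 20.5 coding genes lay within 500 kb of a co-activator gene and 24.5 of a ribosomal protein gene, against 16 over all coding genes. The part of gene density in these shares was not tested.

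Markers of cell types gave small counts. Radial glia and neural stem cell genes stood at 3 of 19, with Hes5 and the RNA-binding protein gene Msi2 at 4 triangles each and Slc1a3, a glutamate transporter of glia, at 2. Microglia and macrophage genes stood at 2 of 15 (Itgam with 4 triangles and Trem2 with 1), oligodendrocyte genes at 2 of 10 (Cnp with 7 and Myrf with 1), and pericyte and fibroblast genes at 2 of 10 (Acta2 with 16 and Pdgfrb with 2). Endothelium had Cdh5, neurons Slc17a7, astrocytes Slc1a3 and the motile cilium list Spag6, each the only member at a corner, with 2 triangles for Slc1a3 and 1 for the others. The Acta2 triangles joined its bin with Stambpl1 to Fas, the death receptor gene, to Lipa, a lysosomal lipase gene, and to the Ifit genes. The list of genes from unrelated tissues had 2 of 20 at corners, Ckm with 3 triangles and Prm2 with 2, in bins shared with other genes. Among the markers above, Hes5, Cnp, Myrf, Acta2, Pdgfrb, Slc17a7 and Spag6 also shared their corner bins with other genes. Msi2, Slc1a3, Itgam, Trem2 and Cdh5 were alone in theirs. Hox genes had 4 of 39, all in the Hoxb cluster, where Hoxb7 had 4 triangles and Hoxb4, Hoxb6 and Hoxb8 had 2 each, to Skap1, Snx11 and Copz2. Cell cycle genes had 2 of 20, Ccnd3 with 2 triangles and Mcm2 with 1, and extracellular matrix genes 2 of 20, Col1a2 with 2 and Timp3 with 1. Of the broadly expressed genes, 2 of 13 were at corners. The list of interactions gives no expression, so it does not show which cells carried a triangle. An interaction was listed for 65.7% of all coding genes. Among markers it was listed for 17 of 19 of radial glia and neural stem cells, 11 of 12 of astrocytes, 9 of 10 of oligodendrocytes, 11 of 16 of neurons, 15 of 15 of microglia and macrophages, 10 of 12 of endothelium and 7 of 10 of pericytes and fibroblasts. It was also listed for 13 of 20 genes of the motile cilium and ependyma and 12 of 20 genes of unrelated tissues.

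Of the 20 coding genes with the most interactions, 2 had an end at a corner, Zeb2 with 2 triangles and Fosl2 with 5. The 95% interval of 2 of 20, 1.23 to 31.7%, held the 16.2% of all coding genes. It also held the 24.7% of coding genes with an interaction. Bcl6, a transcriptional repressor, had 144 interactions, of which 2 went to gene ends at least 50 kb away, and no triangle. Myc had 104 with none to such gene ends, Nrp1, a co-receptor of semaphorins and VEGF, had 99 with 5, and Jun, an AP-1 subunit, had 90 with 3; none had a triangle. Other coding genes within 500 kb numbered 0 for Myc, 1 for Nrp1 and Zeb2, 4 for Bcl6, 5 for Fosl2 and 7 for Jun; the part of local gene number was not tested. Of 11 chosen genes of the YAP, neural and growth pathways, Myc and Jun among them, 1 had triangles, Ccn1, beside 16.2% of all coding genes. Ccn2, Hes1, Sox2 and Yap1 had no gene-end pair at all at this separation, with 13, 50, 27 and 3 interactions. Ankrd1, Jag1 and Tead1 had 2, 1 and 4 such pairs. Ccnd1 had 15 gene-end pairs that formed 20 wedges, and none of the 20 was closed.

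Over all coding genes, the share at a corner rose with the number of interactions and then fell. It was 2.48% of genes with 1 or 2 interactions, 15.1% with 3 to 5, 34.3% with 6 to 10, 50.3% with 11 to 20 and 53.4% with 21 to 50. Of the 61 genes with 51 to 144 interactions it was 16.4% (10 genes, 95% interval 8.15 to 28.1%). Those 61 genes had a median of 5 coding neighbours within 500 kb, against 14 for genes with 11 to 20 interactions. By local gene number the share went from 2.48% of genes with at most 2 neighbours to 20.8% of genes with 31 or more. Genes at corners had a median of 10 interactions, 6 of them to other gene ends, 19 coding genes within 500 kb and a length of 18.8 kb. Because a corner needs at least 2 gene-end interactions, the closest class outside triangles is the 5301 genes that had at least 2; their medians were 6, 3, 16 and 21.3 kb.

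**Figure D5:**
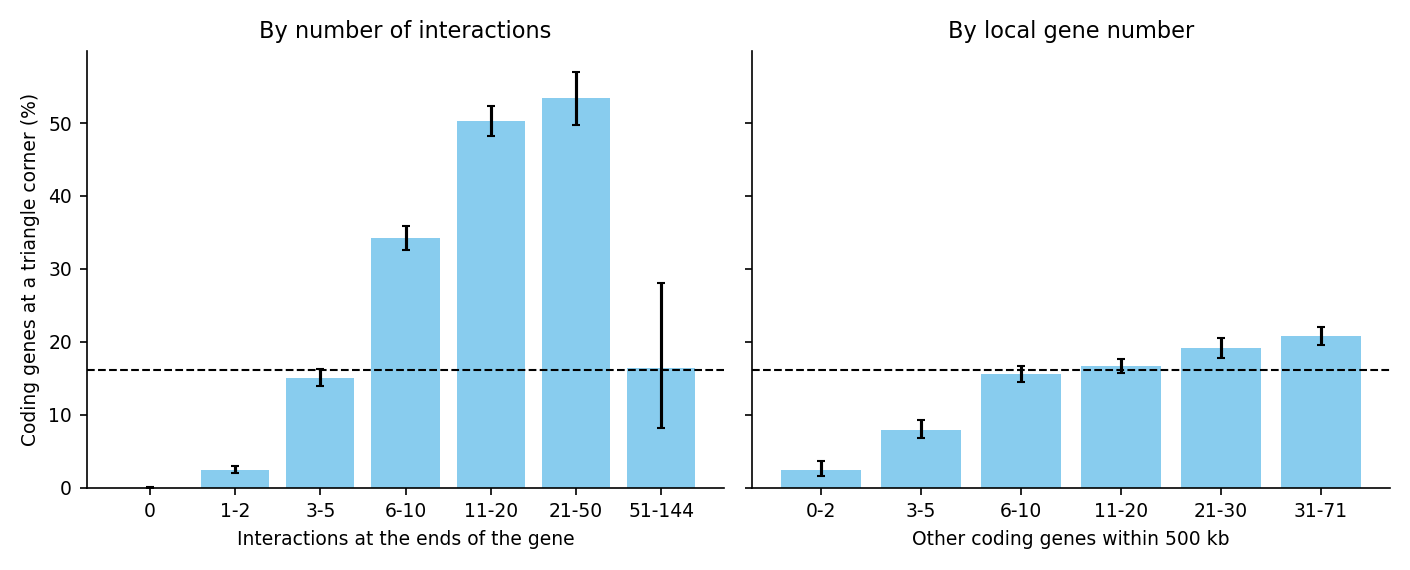
Share of coding genes with an end at a triangle corner (%), by the number of interactions at the gene's ends (left) and by the number of other coding genes within 500 kb (right); bars are exact 95% intervals and the dashed line is 16.2%. The share reaches 53.4% at 21 to 50 interactions and is 16.4% in the last class of 61 genes.

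Corners were also uneven along the genome. Per 1000 listed interactions, chromosome 7 had 51.2 triangles, chromosome 19 had 50.6 and chromosome 11 had 47.7, while chromosome 16 had 9.12 and chromosome 18 had 9.35. Chromosome 11 gave 315 of the 2489 triangles and chromosome 7 gave 301. On chromosome 11, 23.6% of coding genes had an end at a corner, and on chromosome 14, 8.81%, against 16.2% over all autosomes. The share was 23.3% on chromosome 19 and 18.4% on chromosome 7, which had the most coding genes, 2030. It was 13.8% on chromosome 16 and 9.98% on chromosome 18. The part of gene number in the triangles per interaction was not tested.

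Triangles passed over genes. A median of 4 coding genes, with quartiles at 2 and 7 and a maximum of 51, lay between the outer bins without an end in any corner of that triangle, and only 266 triangles (10.7%) passed over none. Of the genes passed over, counted once per triangle, 82.0% had an interaction of their own. That count includes genes at corners of other triangles, which have interactions by definition. A total of 1951 coding genes lay inside some triangle but were never at a corner, and 1315 of them (67.4%) had an interaction elsewhere. This is near the 65.7% of all coding genes that had an interaction.

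Promoter sequences were compared as a description. Motifs were searched on both strands in the 300 bases. They were GGAATG, the core bound by TEAD factors, TGANTCA, bound by AP-1, TTGGCA, a part of the site of NFI factors, the full palindromic NFI site, and CCAAT, the box bound by NF-Y. The letters TGCCAAT hold both CCAAT and, on the opposite strand, TTGGCA, and the full NFI site holds TTGGCA where its spacer starts with A. Of 2553 promoters at corners, 11.6% held GGAATG, against 12.1% of 8786 at other gene-end bins of the list and 13.4% of all 20085 promoters of autosomal coding genes in the table. The shares of TGANTCA were 5.37%, 5.50% and 7.06%, those of TTGGCA 11.9%, 11.3% and 13.1%, and those of CCAAT 38.8%, 37.1% and 38.1%. The full NFI site was in 1, 2 and 7 promoters. The group of all promoters includes those at corners. Of the 8746 promoters outside gene-end bins of the list, 15.2% held GGAATG, 9.11% TGANTCA, 15.2% TTGGCA and 38.9% CCAAT. The full NFI site was in 4 of them. The part of base content in these shares was not tested. The promoter table covered 79.6% of coding genes, below the 80% set for such a check, so the values over all promoters have limited use. The shares at corners and at other gene-end bins had overlapping 95% intervals for each motif.

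CpG content separated listed from unlisted promoters more than corners from other bins. A ratio of observed to expected CpG of at least 0.6 was found in 68.8% of promoters at corners (95% interval 66.9 to 70.6%), 64.3% at other gene-end bins of the list (63.3 to 65.3%) and 27.7% of promoters outside them. The median number of CpG in 300 bases was 20, 19 and 5. In the printed sequences, the promoters of Vdac1, Hspa4 and Aff4 were CpG-rich, with a GC content of 66.0%, 62.7% and 79.0%, and those of the Zfp trio held 5 to 8 CpG. Ccn1 had 20 CpG and 1 TEAD match; Ddah1 had 23 CpG and no match to GGAATG in these letters.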

How the data were processed

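Per the labels' protocols, chromatin was prepared with an MNase HiChIP kit and an H3K27ac antibody. Per the submitters' processing notes, reads were handled with BWA and mm10; versions, interaction caller, threshold, use of peaks and pooling: not given in the sources used here. Per the file headers, the deposited list holds only bin coordinates: no count, score or other value per library.

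Gene positions came from the NCBI RefSeq table of GRCm38.p6 (20665 autosomal coding genes). Python 3.11.15, pandas 2.3.3, networkx 3.6.1, scipy 1.17.1 (Clopper-Pearson intervals) and Biopython 1.88 (promoter alignment: match 1, mismatch -1, gap -2 to open and -0.5 to extend) were used. The triangle finder was tested on simulated data and equalled a brute-force count in 5 of 5 lists. The planned protein identity was replaced by promoter identity, since no protein sequences were used here; tumor and neural stem cells could not be compared as planned.

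The triangles and gene lists were chosen with earlier results of these data known. Genes were named by rule: up to 10 genes by triangles in each of the 8 networks with the most genes, the 10 genes with the most triangles, the 3 widest and 3 narrowest clean triangles, the 5 largest mutually linked sets, 4 genes per list, the 5 triangles with the most alike promoters and 11 fixed genes. Their partners, the leaders by merged triangles (Zfp708), the families and the most connected genes were named after their values were seen. Alternatives varied the gene-end window, separation, gene set, bin rule and distance limit. Some genes that the naming rule selects are not reported here.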

Additional observations from a re-analysis of the deposited data

How the results depend on the processing

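No paired analysis was possible because nothing in the deposited list is given by library; equally, no replicate could be left out and no stricter threshold set. The number of triangles, 2489, was 1534 with a gene-end window of 0 kb, 1272 with bins at least 100 kb apart, 357 when the bin midpoint had to lie in the window, 5934 with all annotated genes, 681 with single-gene bins, 178 with genes of at most 10 kb and 1470 after merging adjacent triangles. The genes in triangles, 3349, became 1983 at 100 kb, 751 by midpoint, 7210 with all annotated genes, 849 with single-gene bins and 327 with short genes. The networks, 539, became 333, 162, 864, 235 and 58 in the same order. The share of closed wedges, 23.4%, was 24.9% with no window, 22.6% with a window of 5 kb, 20.7% at 20 kb, 26.0% by midpoint, 22.7% with all annotated genes and 24.1% with pairs up to 500 kb. The median span, 310 kb, was 270 kb at 20 kb, 400 kb at 100 kb, 290 kb by midpoint, 340 kb with single-gene bins, 250 kb with short genes and 260 kb with pairs up to 500 kb. Of 189 recomputed list shares, 128 stayed inside the 95% interval of the main value and 61 did not. The share of all coding genes at a corner, 16.2%, moved with the settings as well. It was 9.60% at 100 kb, 3.63% by midpoint, 4.11% with single-gene bins, 1.58% with short genes and 20.7% with all annotated genes. A list share outside its interval therefore need not have moved against all coding genes. Apart from what each alternative adds or removes by construction, the cause was not tested. List shares were not recomputed for merged triangles. Depth is unknown, so no limit from it can be given.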

Other observations

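Non-coding genes completed many triangles that coding genes alone did not. With the ends of all 47042 annotated autosomal genes, 5934 triangles were found, and 2932 non-coding genes had an end at a corner. Of the early-response regulators 11 of 18 then stood at a corner, of the AP-1 factors 7 of 12 and of the YAP/TEAD targets 10 of 22, against 20.7% of all coding genes under the same rule. These were among 12 lists that gained members; the other 9 gained none, among them neurons (1 of 16), microglia and macrophages (2 of 15), endothelium (1 of 12), co-activators (5 of 10), Hox genes (4 of 39) and ribosomal proteins (10 of 30). Hes1, the Notch-induced repressor, gained 5 triangles, Bcl6 gained 4 and Ankrd1, a YAP target, 3. The Bcl6 triangles ran to Gm32126 and Gm52245, which are long non-coding RNA genes, the pseudogene Gm41434 and the microRNA gene Mir28a. Btg1, an anti-proliferative gene, had 15 triangles, with pseudogenes and long non-coding RNA genes among its partners. Because all annotated genes cover more bins, more triangles follow by construction, and the part of gene number in these counts was not tested.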
